A study of Homo sapiens with 6 samples.

Results

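The genes of cellular iron uptake and storage were examined in a genome-wide CRISPRi screen, by taking the sgRNA rows named for TFRC, TFR2, STEAP3, SLC11A2, IREB2, ACO1, FTH1, FTL, NCOA4 and SLC40A1. These were 10 of the 18905 genes measured. They were covered by 60 sgRNAs at 12 transcription start sites, 5 to a site, because SLC11A2 and SLC40A1 were each targeted at 2 start sites (P1 and P2). The rule that picks the rows uses gene names alone, but the genes were chosen with earlier results of these data known.

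The screen used HEK293-FLP cells, a human embryonic kidney line built for insertion of transgenes at one genomic site, which expressed DOR-MRS(WT)-APEX2 together with dCas9-KRAB-BFP. The receptor is a delta opioid receptor carrying the recycling sequence of the mu opioid receptor. APEX2 is an engineered ascorbate peroxidase whose substrate AUR becomes fluorescent on oxidation. In CRISPRi, a Cas9 that cannot cut DNA brings the KRAB repressor to the promoter that the sgRNA matches, and transcription from it falls. Per the labels, cells of every group had carried their sgRNA for 8 days, 3 of them in puromycin at 0.75 μg/ml, and received 10 μM of the opioid peptide DADLE for 90 minutes and 100 μM AUR before sorting. The sgRNAs were split over 3 sublibraries, H17, H23 and H456. For each, cells of the bottom and the top fluorescence quartile were sequenced as 1 library apiece, so the 6 libraries had no replicates. Cells without agonist or with another receptor were not analysed here, and no library measured mRNA, so the extent of knockdown of each gene is unknown.

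Most cells take up iron as transferrin-bound iron, which TFRC carries into endosomes, where STEAP3 reduces the iron and SLC11A2 moves it to the cytosol. The iron regulatory proteins ACO1 and IREB2 bind iron-responsive elements in mRNAs when iron is scarce, which stabilises TFRC mRNA and blocks translation of the ferritin mRNAs FTH1 and FTL. Ferritin stores iron, NCOA4 brings it to the lysosome for release, and SLC40A1 (ferroportin) is the iron exporter. APEX2, like other peroxidases of its class, holds a heme group.

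Because CRISPRi acts at the start of transcription, the bases just before the annotated start are shown for the main uptake receptor (TFRC), a ferritin subunit (FTL) and the iron sensor with the lowest p in H23 (IREB2). The sequences are the 250 bases before 1 transcript start of each gene, 5′ to 3′ on its strand, from RefSeq on GRCh38.p14. The TFRC and FTL windows end at the outer end of the annotated gene, while the IREB2 window lies inside the annotated gene, whose span begins further upstream. Capitals mark 3 motifs searched on both strands: the GC box, GGGCGG, the TATA box, which reads TATAAA, and the core of hypoxia response elements, which reads ACGTG.
TFRC, chr3:196082091-196082340, minus strand: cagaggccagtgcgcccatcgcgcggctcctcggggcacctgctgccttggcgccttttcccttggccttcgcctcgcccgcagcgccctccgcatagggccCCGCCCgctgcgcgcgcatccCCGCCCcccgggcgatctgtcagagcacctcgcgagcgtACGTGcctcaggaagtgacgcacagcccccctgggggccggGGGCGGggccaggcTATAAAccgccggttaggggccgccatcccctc
FTL, chr19:48965059-48965308, plus strand: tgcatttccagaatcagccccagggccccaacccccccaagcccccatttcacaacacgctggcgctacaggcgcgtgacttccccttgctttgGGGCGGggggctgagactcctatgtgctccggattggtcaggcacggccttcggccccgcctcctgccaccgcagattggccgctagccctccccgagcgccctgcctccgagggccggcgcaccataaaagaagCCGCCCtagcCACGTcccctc
IREB2, chr15:78437966-78438215, plus strand: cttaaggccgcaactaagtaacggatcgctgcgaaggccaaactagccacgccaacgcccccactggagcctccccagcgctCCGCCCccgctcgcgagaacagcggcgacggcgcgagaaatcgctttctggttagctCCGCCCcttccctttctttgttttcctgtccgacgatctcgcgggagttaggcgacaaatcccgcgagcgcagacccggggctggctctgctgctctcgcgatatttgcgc
The TFRC window held 3 GC boxes, 1 TATA box and 1 hypoxia core, the FTL window 2 GC boxes and 1 hypoxia core, and the IREB2 window 2 GC boxes. Among 35116 promoter windows of this length, 42.6% held a GC box, 10.7% a TATA box and 18.5% a hypoxia core, on either strand. The GC content was 74.4% for TFRC, 67.6% for FTL and 63.2% for IREB2, against a median of 58% over all windows. The PAM of the Cas9 used ends in GG, and positions with this pair of bases on either strand numbered 73 in the TFRC window, 70 in the FTL window and 43 in the IREB2 window, with a median of 48. These are descriptions of the letters in the windows, and the table matched 8 of the 10 genes.

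The libraries held 23426498 to 50486627 reads. Reads are given as CPM, counts per 1000000 reads of the analysed sgRNAs of a library. The phenotype of an sgRNA is the log2 ratio of its CPM in the top to that in the bottom quartile, centred so that the nontargeting control sgRNAs (NTC) of the sublibrary have a median of 0. A negative phenotype therefore means that cells with the sgRNA lay more often in the bottom quartile. The phenotype of a gene is the mean over its 5 sgRNAs at a start site, given with the SD over these sgRNAs, and its p comes from an exact two-sided Mann-Whitney test against the NTC sgRNAs. The 553 NTC sgRNAs of H17 had an SD of 0.47, with the 1st and 99th percentiles at −2.23 and 0.74. The 570 NTC sgRNAs of H23 had an SD of 0.28, with these percentiles at −0.74 and 0.68.

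None of the 10 iron genes was called in the screen. At an adjusted p under 0.05 the call was made for 0 of 10 iron genes, against 0.476% of all genes. Against a threshold set on pseudogenes, which are random groups of 5 NTC sgRNAs, 0 of 10 were hits, against 1.02% of all genes. Hits were unevenly spread, at 113 of 6042 genes in H23 and 5 of 5906 in H17. These sublibraries held 8 and 2 of the iron genes. An unadjusted exact p under 0.05 was reached by 2 of 10 iron genes, FTH1 and IREB2, against 8.12% of all genes. The phenotype was negative for 5 and positive for 5, with a median of 0.015, while 49.6% of all genes were negative with a median of 0.0013. The adjusted p of the 10 genes ran from 0.386 to 0.962 (exact Mann-Whitney test, Benjamini-Hochberg adjusted across the whole screen). Of the 60 sgRNAs, 34 had a negative and 26 a positive phenotype, 1 lay above the 99th percentile of its NTC sgRNAs and 0 below the 1st. Each had 100 to 2599 reads in a library, which gave a counting SD of 0.042 to 0.20 in its phenotype. None of the 60 sgRNAs shared its counts or its position with another gene of the library.

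**Figure D1:**
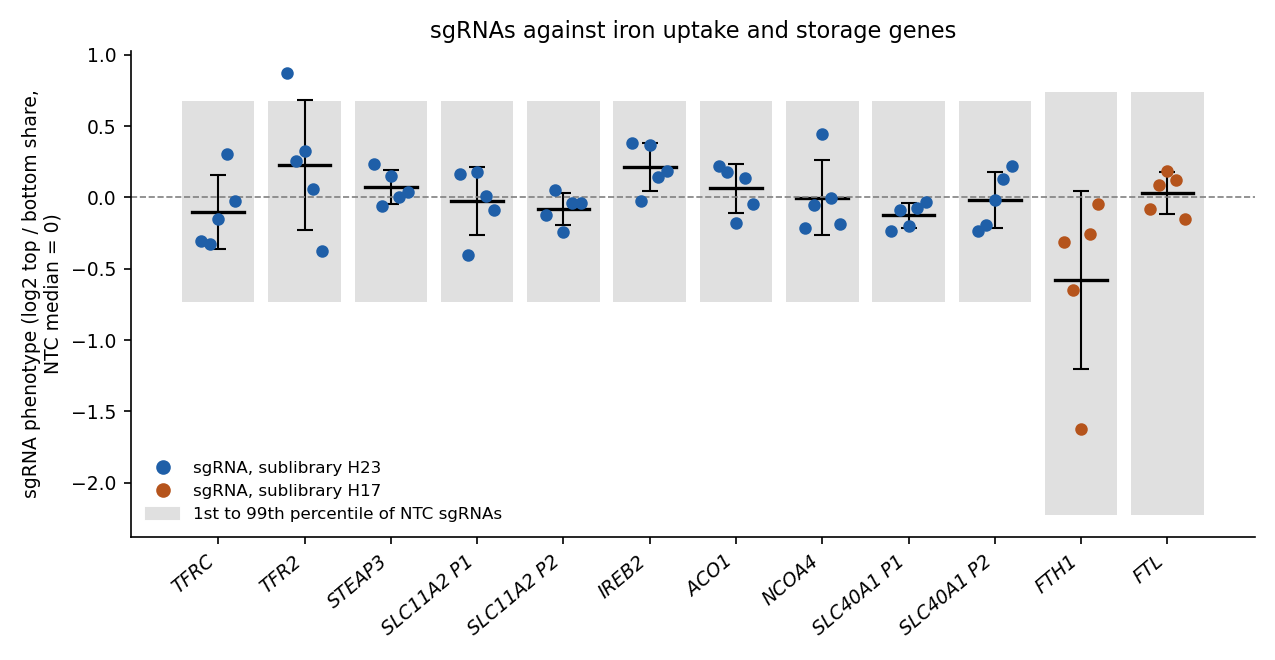
Phenotype of each of the 60 sgRNAs against the iron genes (points), by gene and start site, on a log2 scale with the NTC median at 0. Bars are the mean and SD over 5 sgRNAs and grey boxes run from the 1st to the 99th percentile of the NTC in that sublibrary. FTH1 reaches −1.62 inside the wide H17 box, and 1 TFR2 sgRNA at 0.87 lies above its box.

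FTH1, the ferritin heavy chain with the ferroxidase site, had the lowest phenotype of the 10 genes at −0.58 ± 0.62 (SD, n = 5 sgRNAs). Its 5 sgRNAs stood at 25.4, 15.2, 28.8, 38.2 and 17.2 CPM in the bottom quartile and at 20.3, 9.63, 9.32, 31.9 and 16.7 in the top quartile. The share was thus lower in the top quartile for 5 of 5 sgRNAs, and the phenotypes were −0.32, −0.65, −1.62, −0.26 and −0.043. The exact p was 0.0104 and the adjusted p 0.386, and FTH1 ranked 115 from the lowest of 5906 genes in H17. Its size exceeded the smallest phenotype of a called H17 gene, 0.48, but its score of 5.22 was below the hit threshold of 16.0. The value leaned on 1 sgRNA: without sgRNA 3 it was −0.32 with an exact p of 0.0528, and 1.45% of the NTC sgRNAs of H17 lay below that sgRNA.

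FTL, the ferritin light chain, had its sgRNAs in the same pair of libraries and a phenotype of 0.032 ± 0.14 (SD, n = 5 sgRNAs, exact p = 0.693). Its 5 sgRNAs stood at −0.084, 0.089, 0.19, 0.12 and −0.15, between 31.8% and 77.4% of the NTC sgRNAs counted from below. The sgRNAs of FTH1 and FTL overlapped in phenotype, with the 2 highest of FTH1 (−0.043 and −0.26) on either side of the lowest of FTL. Whether the 2 ferritin genes differ was not tested.

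NCOA4, the receptor that carries ferritin into autophagosomes, had a phenotype of −0.0014 ± 0.27 (SD, n = 5 sgRNAs, exact p = 0.760). Of its sgRNAs, 4 were negative (−0.21, −0.052, −0.0024 and −0.19) and 1 was positive at 0.45, with 22.1 CPM in the bottom and 30.4 in the top quartile. The sum of these was near 0 because 1 sgRNA balanced the other 4. Its sgRNAs were among the better read ones, with 888 to 2194 reads in the bottom and 1429 to 2599 in the top quartile.

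TFRC, the transferrin receptor, had a phenotype of −0.10 ± 0.26 (SD, n = 5 sgRNAs, exact p = 0.311, adjusted p = 0.859). Its sgRNAs had 667, 1310, 1810, 242 and 1171 reads in the bottom quartile and 640, 1238, 1934, 355 and 1369 in the top quartile. In phenotypes these were −0.31, −0.33, −0.15, 0.31 and −0.021, so that 4 of 5 were negative and the one positive sgRNA was the one with fewest reads. All 5 lay between 10.2% and 87.4% of the H23 NTC sgRNAs counted from below.

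TFR2, the second transferrin receptor, which is best known as an iron sensor of the liver, had the highest phenotype of the 10 at 0.23 ± 0.45 (SD, n = 5 sgRNAs, exact p = 0.170). Its sgRNAs ran from −0.38 to 0.87, the widest range of the 8 iron genes in H23, with the others at 0.25, 0.33 and 0.061. The sgRNA at 0.87 had 120 reads in the bottom and 261 in the top quartile, a counting SD of 0.16, and 0.351% of the NTC sgRNAs above it. Without it the phenotype was 0.066.

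STEAP3, the ferrireductase of the endosome, had a phenotype of 0.074 ± 0.12 (SD, n = 5 sgRNAs, exact p = 0.425) with 4 of 5 sgRNAs positive, from −0.058 to 0.23. SLC11A2 (DMT1), the transporter that moves ferrous iron out of the endosome, stood at −0.027 ± 0.24 at P1 (exact p = 0.961) and −0.078 ± 0.11 at P2 (exact p = 0.389), each over 5 sgRNAs. Its lowest sgRNA was at P1, at −0.40 with 33.9 CPM in the bottom and 25.9 in the top quartile, and the other 9 ran from −0.24 to 0.18. Neither the reductase nor the transporter had an sgRNA outside the range of the NTC sgRNAs.

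IREB2 (IRP2), the iron regulatory protein that is degraded when iron is plentiful, had a phenotype of 0.21 ± 0.17 (SD, n = 5 sgRNAs). Its sgRNAs had 15.9, 15.6, 16.1, 5.81 and 30.0 CPM in the bottom and 20.9, 15.5, 21.0, 6.49 and 34.5 in the top quartile. The top share was higher for 4 of 5 sgRNAs, with phenotypes of 0.38, 0.37, 0.15 and 0.19, and the remaining one was at −0.026. The exact p was 0.0407 and the adjusted p 0.583, and IREB2 ranked 323 from the highest of 6042 genes in H23. Without the strongest sgRNA its phenotype was 0.17 and its exact p 0.134.

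ACO1 (IRP1), which switches between a cytosolic aconitase with an iron-sulfur cluster and an RNA-binding form, had a phenotype of 0.063 ± 0.17 (SD, n = 5 sgRNAs, exact p = 0.503). Its sgRNAs stood at 0.22, 0.18, −0.18, 0.14 and −0.045, with 764 to 1754 reads in the bottom and 1059 to 2273 in the top quartile. The sgRNAs of the 2 iron sensors overlapped, and whether the sensors differ was not tested.

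SLC40A1 (ferroportin) had sgRNAs of one sign at P1 but not at P2. At P1 its 5 sgRNAs stood at −0.24, −0.087, −0.20, −0.071 and −0.030, a mean of −0.12 ± 0.088 (SD, n = 5 sgRNAs, exact p = 0.160, adjusted p = 0.779). At P2 the mean was −0.020 ± 0.20 (exact p = 0.841) with 3 negative and 2 positive sgRNAs, from −0.23 to 0.22. The spread at P1 was the narrowest of the 12 start sites, yet each sgRNA lay well inside the NTC range.

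**Figure D2:**
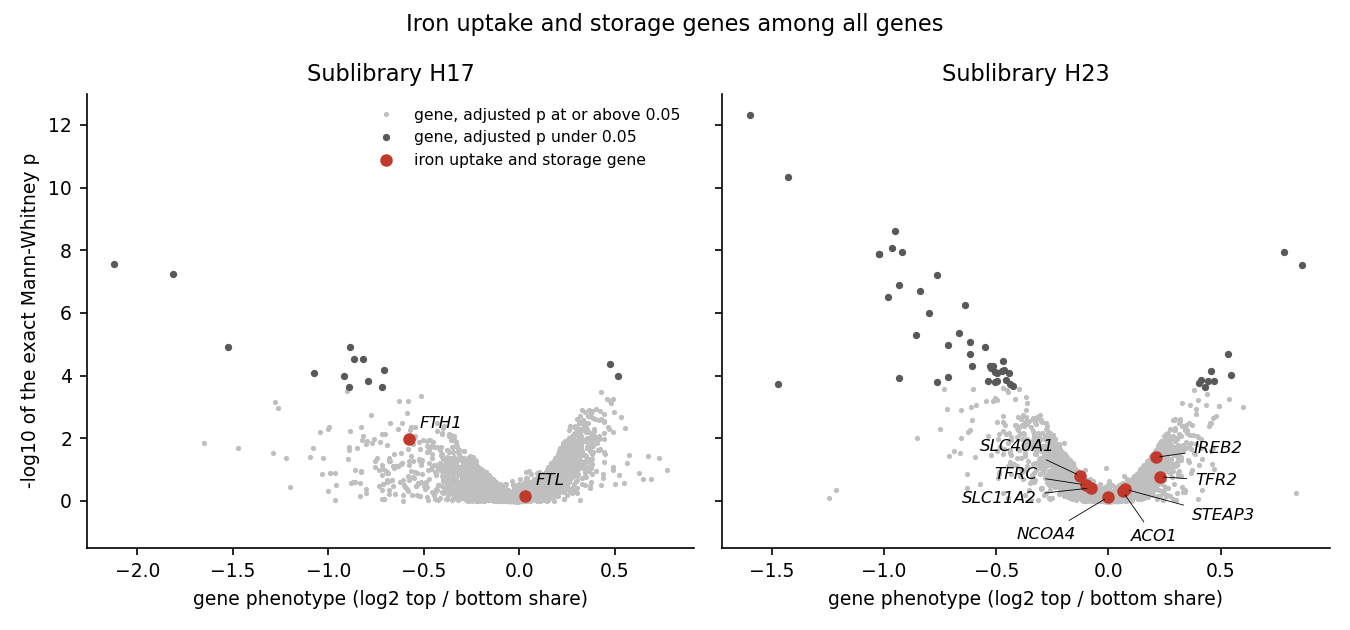
Gene phenotype (log2) against −log10 of the exact Mann-Whitney p for all genes of H17 and H23, the sublibraries that held the iron genes (red). FTH1 at −0.58 and IREB2 at 0.21 have the lowest p of the 10, and all 10 lie among the genes that were not called (light grey).

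Several sgRNAs of one iron gene lay so close that their target sites overlapped, and their phenotypes could still be far apart. On the same strand and at most 15 bases apart there were 10 pairs in 5 iron genes, which share sgRNAs in part. The difference ran from 0.00049 to 1.36, with a median of 0.45. In TFRC the sgRNAs 3 and 4, counted along the chromosome, were 3 bases apart and stood at −0.15 and 0.31. In SLC11A2 sgRNAs 2 and 3 at P1 were 5 bases apart and stood at −0.40 and 0.18. Its sgRNAs 4 and 5 at P2 were 14 bases apart and stood at −0.036 and −0.037. In FTH1 sgRNA 3 (−1.62) was 15 bases from sgRNA 2 (−0.65) and 10 bases from sgRNA 4 (−0.26). Over all genes the median difference of such pairs was 0.26 in H17 and 0.23 in H23, with a median counting SD of 0.12 and 0.085. The highest decile of these differences began at 0.73 in H17 and 0.60 in H23. The named pairs of TFRC and SLC11A2 lay below that limit and those of FTH1 above it. Over all pairs of NTC sgRNAs the median difference was 0.30 in H17 and 0.25 in H23, and the cause of the differences within a gene was not tested.

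The level of an sgRNA is the mean of its CPM in the bottom and the top library, as log2 over the median of the NTC sgRNAs. It is given as a description without a test. At the start site that stood for the gene, the mean level was lowest for IREB2 at −0.80, followed by TFR2 at −0.67, TFRC at −0.44, FTH1 at −0.40, STEAP3 at −0.34 and FTL at −0.055. It was higher for SLC40A1 at 0.25 (P1), ACO1 at 0.28, SLC11A2 at 0.36 (P2) and NCOA4 at 0.42. That is the site with the lower p, and the other site had a lower mean level, −0.63 for SLC40A1 at P2 and −0.0014 for SLC11A2 at P1. At P2 of SLC40A1, 1 sgRNA with 100 and 117 reads stood at −3.49, and its other 4 ran from −0.57 to 0.38. The SD over the 5 sgRNAs was 0.28 to 1.26, and each step between neighbours in this order was smaller than the SDs of the 2 genes it separates. For IREB2, 5.20% of H23 genes had a lower level, for TFRC 17.6%, and for NCOA4 91.6%. No library from before knockdown was analysed, so growth of the cells and the makeup of the virus pool cannot be told apart.

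**Figure D3:**
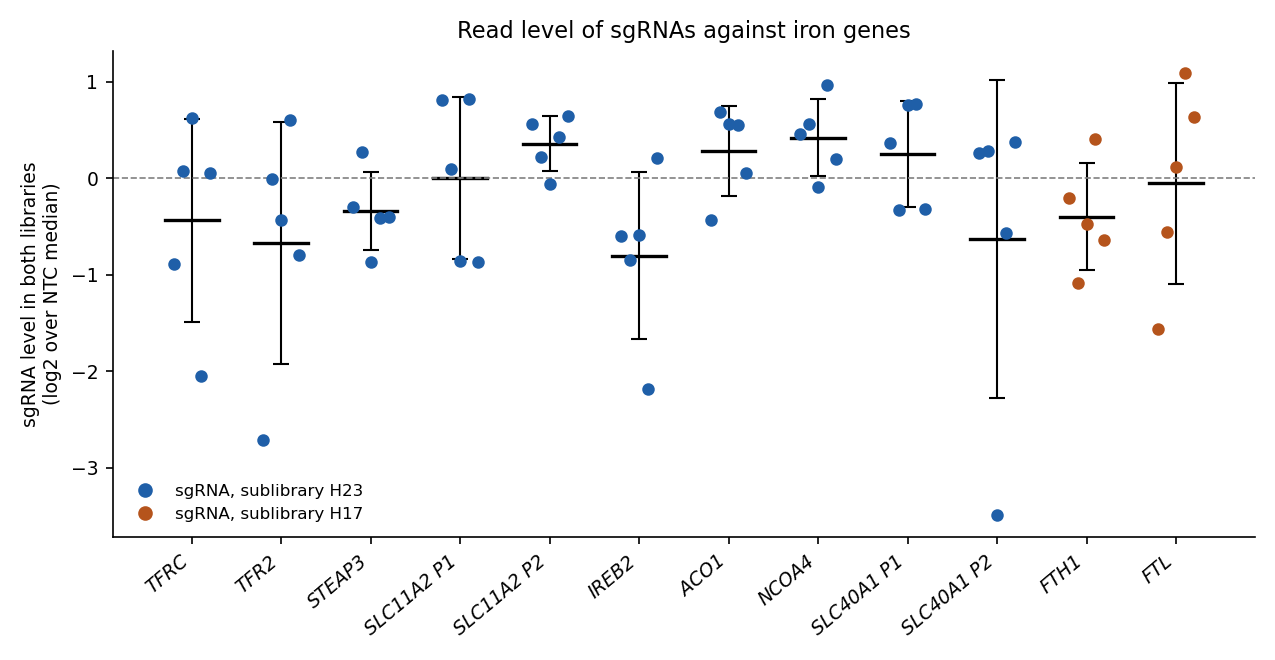
Level of each sgRNA against the iron genes (points), with the mean and SD over 5 sgRNAs. The level is log2 of the mean CPM of the bottom and top libraries over the NTC median. The gene means run from −0.80 (IREB2) to 0.42 (NCOA4) and single sgRNAs from −3.49 (SLC40A1 P2) to 1.09 (FTL).

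The other genes that handle iron, heme and iron-sulfur clusters were counted in 7 lists, with values for 94 genes. Of these 94, 38 were negative and 56 positive with a median of 0.032, 0 were called and 3 were hits, where 1.02% of all genes were hits. PCBP1, DNM2 and ALAD were the hits, each with an adjusted p above 0.2. All 3 lay in H23, where 113 of 6042 genes were hits. In H456 75 of 6957 genes were hits, and in H17 5 of 5906. An unadjusted exact p under 0.05 was reached by 16 of the 94, against 8.12% of all genes, and whether the lists differ from the other genes was not tested. The hits were lost without the strongest sgRNA of each gene, with less than 5% pseudogenes or with one threshold over the 3 sublibraries, which each left 0 hits. The lists held 2 hits with the median over sgRNAs and with some other random draws of pseudogenes.

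Among 12 heme synthesis genes, 8 were negative and 4 positive, with a median of −0.030. ALAD, which makes porphobilinogen, was a hit at −0.39 ± 0.22 (SD, n = 5 sgRNAs, exact p = 0.00237, adjusted p = 0.206) with 4 of 5 sgRNAs negative. FECH, which inserts iron to form heme, stood at −0.38 (exact p = 0.0232, n = 5 sgRNAs), and ALAS1 was the highest of the list at 0.27. ALAD lay in H23, in the same pair of libraries as 8 of the iron genes, and was further from 0 than each of them. Whether the iron genes and the heme genes differ as lists was not tested.

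In the transferrin receptor cycle, 5 of 14 genes were negative and 9 positive, with a median of 0.028. DNM2, the dynamin that pinches off coated vesicles, was a hit at 0.46 ± 0.36 (SD, n = 5 sgRNAs, exact p = 0.00320, adjusted p = 0.230) with all 5 sgRNAs positive. The paper states that dynamin was not among the hits of its own analysis of this screen. The hit therefore holds only for the scoring used here, which gave 193 hits over all genes. The adaptor subunits AP2S1 and AP2B1 stood at 0.20 each (exact p = 0.0480 and 0.0472, n = 5 sgRNAs), MYO5B at −0.24 (exact p = 0.0198) and RAB11B was the lowest at −0.41. In the list of iron control, chaperones and export, 6 of 15 were negative and 9 positive, with a median of 0.027. PCBP1, a chaperone that delivers iron to ferritin, was a hit at −0.49 ± 0.47 (SD, n = 5 sgRNAs, exact p = 0.00762, adjusted p = 0.343) with all 5 sgRNAs negative, and BMPR1A was the highest at 0.34.

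No gene of the remaining 4 lists was called or a hit. The list of other carriers, reductases, transporters and regulators of iron uptake was negative for 8 and positive for 7 of 15, with SLC39A8 at 0.32, LTF at 0.33 and SLC25A37 at −0.18 each at an unadjusted exact p under 0.05, and MFI2 lowest at −0.37. Heme transport and breakdown was negative for 3 and positive for 7 of 10, with HMOX2 at 0.33 and FLVCR2 at 0.32 below that p and BLVRB lowest at −0.11. Iron-sulfur assembly in mitochondria was negative for 6 and positive for 11 of 17, with NFS1 at 0.30, LYRM4 at 0.23 and ISCA1 at −0.19 below that p and GFER lowest at −0.27. Iron-sulfur assembly in the cytosol was negative for 2 and positive for 9 of 11, with MMS19 at 0.29 below that p and FAM96A lowest at −0.085.

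**Figure D4:**
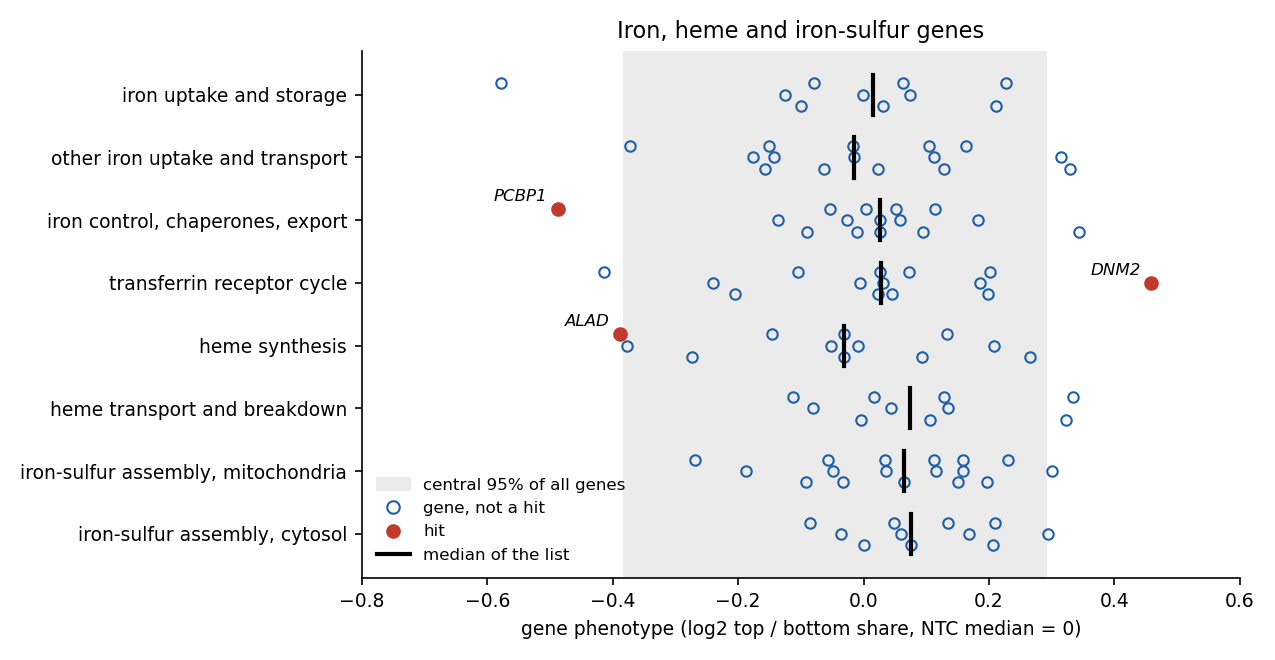
Phenotype of each gene (points, log2) in the iron uptake and storage set and in 7 related lists, with the list medians (black) and the central 95% of all genes (grey, −0.38 to 0.29). Filled points are the 3 hits ALAD, PCBP1 and DNM2, and the iron uptake and storage set holds none.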

How the data were processed

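The deposited files hold raw counts per sgRNA, which the authors made by amplifying sgRNAs from genomic DNA in 27 PCR cycles, cropping reads to 38 bp and counting them without molecular identifiers. The genome build of the sgRNA positions and the sgRNA sequences are not given in the sources used here, so only distances between sgRNAs are reported. The time with sgRNA and with agonist in the labels differs from that in the methods, and the labels' times are given.

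The direction rests on the sample titles, since the library names in the descriptions carry the letter of the opposite quartile. A gene was placed in the sublibrary where most of its sgRNAs had most of their reads, and an sgRNA needed at least 10% of its reads there and 50 reads in at least one library. Of 120 rows for the iron genes, 60 met this, and the other 60 had fewer than 50 reads in every library. Over all genes and controls, 104553 of 209070 rows had any reads. Pairs of counts with a 0 had 1 added to each. Where a gene had several start sites, the one with the lower p stood for it. With 1 library per quartile, the sgRNAs are the units, and a p compares the libraries of one sort, not cultures. The smallest p that 5 sgRNAs allow against 570 is 3.885e-12. Counting SDs cover counting error only.

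Hits scored at or above the lowest threshold per sublibrary with less than 10% pseudogenes, where the score is the size of the phenotype over the pseudogene SD times −log10 of the normal-approximation p. Named genes were the 10 members and in each other list the hits, the called genes, those with an unadjusted exact p under 0.05 and the lowest and highest gene. FLVCR1 falls outside this rule. The members and lists were chosen with earlier results of these data known. HERC2 of the lists was not analysed here. A gene of the heme synthesis list, left out of its counts, and a gene set as a check of direction are not reported here. Python 3.11.15, scipy 1.17.1 and, for alternative scalings only, edgeR 4.0.16 and DESeq2 1.42.0 under R 4.3.3 were used, and the procedure was tested on simulated data. Alternatives covered the read minimum, added counts, centring, the summary over sgRNAs, start sites, the comparison set, depth, the pseudogene limit and the pseudogene draw.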

Additional observations from a re-analysis of the deposited data

Results flagged for a closer look

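The fifth sgRNA of NCOA4 had reads in libraries that should not hold it. Besides 1372 and 1429 reads in the bottom and top quartile of H23, it had 34 and 68 in those of H17 and 11 and 5 in those of H456, together 118 reads or 4.04% of all its reads, above the limit of 3 counts that a count of 0 allows. The other 59 iron sgRNAs had 0.154% to 2.90% of their reads outside their sublibrary, and 1.96% of 101311 sgRNAs of the screen reached 4.04% or more. The cause was not tested.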

How the results depend on the processing

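The 10 iron genes gave 0 calls and 0 hits under every alternative run. Their phenotypes kept their sign except for 3 genes near 0: NCOA4 was 0.0065 when centred on all sgRNAs or by DESeq2 size factors, 0.0068 by TMM and 0.016 as the mean of the 3 strongest sgRNAs, and without the strongest sgRNA FTL was −0.0072 and SLC11A2, then at P1, 0.067. FTH1 ranged from −0.86 to −0.32 and IREB2 from 0.17 to 0.31. Without the strongest sgRNA, which leaves fewer sgRNAs a gene, 22 genes of the whole screen were called, 91 were hits, and the other lists held 0 hits. With olfactory receptor sgRNAs as the comparison set 50 genes were called. With less than 5% pseudogenes 128 genes were hits, 0 of them in the other lists, and with one threshold over the 3 sublibraries the other lists again held 0 hits. The cause of these changes was not tested. The hit threshold of H17 depended on the random draw of pseudogenes: over 6 draws it ran from 9.68 to 16.0 and the H17 hits from 5 to 20, and over all alternatives these hits ran from 3 to 25. The score of FTH1 stayed below each of these thresholds. Over the same 6 draws the hits of the whole screen ran from 144 to 236 and those of the other lists from 2 to 3. The median of the cytosolic iron-sulfur list moved to 0.20 with the 3 strongest sgRNAs. No paired analysis was possible because each group held 1 library. With no replicate library the spread between sorts is unknown, and depth leaves a counting SD of up to 0.20 for an iron sgRNA.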

Other observations

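FLVCR1, from the list of heme transport and breakdown, was chosen after its values were seen, for the spread of its sgRNAs. Its mean was 0.043 ± 1.84 (SD, n = 5 sgRNAs), since 1 sgRNA with 14 reads in the bottom and 61 in the top quartile stood at 2.89 and another with 105 and 13 stood at −2.25. The other 3 sgRNAs stood at −0.14, −0.40 and 0.11. The mean level of its sgRNAs was −2.77, lower than that of each of the 10 iron genes.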
